A study of Mus musculus with 18 samples.

Results

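The genes described here are 39 replication and mitosis genes, listed by symbol as a cell cycle set, among the 55536 gene identifiers counted in each liver. All 39 symbols matched 1 identifier each. Of these, 38 held enough counts to be tested, and Gins2, a subunit of the replicative helicase complex, had 0 counts in all 18 libraries. All of the exon bases of Gins2 lie inside the spans of Gm20388 and Gse1, introns included. The part of this overlap in the 0 was not tested, and the 0 is not read here as absence of expression.

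Most hepatocytes of an adult liver rest outside the cell cycle and re-enter it when cells are lost. Entry runs through D and E cyclins and the E2F transcription factors, which switch on the genes of DNA replication. The genes of mitosis follow later in the cycle, under FOXM1 and the DREAM and MuvB complexes, and their transcripts are common markers of dividing cells in bulk tissue. E2F7 and E2F8 are repressing members of the E2F family that limit these same genes and are known for their part in making hepatocytes polyploid. In whole liver, fewer dividing cells and less RNA per dividing cell cannot be told apart.

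The livers came from female C57BL/6 mice killed at day 92, after gavage every 4 days with peanut oil (vehicle) or with TCDD at 100 µg/kg. TCDD is a dioxin that activates the aryl hydrocarbon receptor, AHR. The 3 genotypes were AhRfl/fl, here WT, in which the floxed gene is intact; AhRΔHep, here dHep, deleted in hepatocytes; and AhRΔHSC, here dHSC, deleted in hepatic stellate cells, the liver's matrix-forming cells. Each of the 6 groups held 3 mice, and each library is 1 mouse, named by the number in its label. The Cre drivers, the deleted part of the gene and the ages of the mice were not given in the sources used here, and the series title names myofibroblast activation through hepatocyte AHR as the question.

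A library held between 12706490 and 27240877 counts. The 5 libraries with over 2% of their counts outside protein-coding genes are here said to stand apart. They are dHep vehicle mice 9 and 15, dHep TCDD mouse 16, dHSC vehicle mouse 17 and dHSC TCDD mouse 18. No WT library is among them. On the first principal component of all genes, with 38.3% of the variance, these 5 lay at 62.1 to 126. WT TCDD mouse 8 was next, at 36.8 and with 1.76% outside protein-coding genes. Every other library lay at -11.8 or below. WT vehicle mouse 1 held 1626 CPM of summed skeletal muscle markers, against at most 26.9 CPM elsewhere. Levels are CPM, a library's counts of a gene scaled to a common library size, with TMM scaling. Called means a Benjamini-Hochberg adjusted p under 0.05 over the 14835 genes that edgeR's quasi-likelihood method tested. Hepatocyte markers summed to between 52005 and 181600 CPM in every library, so all 18 carry the labelled tissue.

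The stretches before the start sites of 4 genes are shown as examples from the roles described below. E2f8 was the only member called in any comparison, Mcm6 had the largest log2 change among the replication genes with TCDD in WT, and Cdk1 and Mki67 stand for the mitosis genes. The sequences are from RefSeq on GRCm38.p6, each on the gene's own strand. Each ends 1 base before the RefSeq start, from which positions are counted, except that of Cdk1. It ends 1 base before the start in GENCODE, which leaves out the last 26 bases before the RefSeq start, among them a second match to the homology letters 15 bases before it. Capitals mark matches, on either strand, to the E2F letters (TTCCCGC and its variants TTGGCGC as well as TTCGCGC and likewise TTGCCGC), to the cell cycle homology region, spelled TTTGAA, to the CCAAT box, spelled CCAAT, and, in E2f8, to the AHR core, spelled GCGTG.
E2f8, chr7:48881597-48881816, minus strand: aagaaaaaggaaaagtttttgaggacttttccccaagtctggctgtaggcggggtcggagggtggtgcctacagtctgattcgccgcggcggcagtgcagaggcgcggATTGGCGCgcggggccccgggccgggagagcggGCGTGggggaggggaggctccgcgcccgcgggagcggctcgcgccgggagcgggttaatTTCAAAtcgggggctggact
Mcm6, chr1:128359706-128359925, minus strand: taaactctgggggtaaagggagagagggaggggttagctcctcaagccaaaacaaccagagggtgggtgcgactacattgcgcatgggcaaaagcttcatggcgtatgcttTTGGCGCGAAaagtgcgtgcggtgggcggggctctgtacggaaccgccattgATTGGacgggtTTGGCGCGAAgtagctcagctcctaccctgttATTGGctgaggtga
Cdk1, chr10:69352939-69353158, minus strand: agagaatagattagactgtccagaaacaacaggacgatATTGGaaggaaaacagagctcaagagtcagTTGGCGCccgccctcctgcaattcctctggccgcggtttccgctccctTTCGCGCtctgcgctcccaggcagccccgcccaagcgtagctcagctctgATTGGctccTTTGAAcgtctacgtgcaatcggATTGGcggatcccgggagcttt
Mki67, chr7:135716380-135716599, minus strand: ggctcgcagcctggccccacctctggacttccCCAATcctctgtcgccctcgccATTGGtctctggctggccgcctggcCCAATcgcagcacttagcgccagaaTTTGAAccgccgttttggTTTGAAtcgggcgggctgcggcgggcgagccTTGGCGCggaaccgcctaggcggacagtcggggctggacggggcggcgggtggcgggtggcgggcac

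A promoter entry was found for 30 of the 39 members, each a window of 300 bases. The cell cycle homology letters stood in 15 of the 30, and in 12 of the 17 windows of mitosis genes, against 17.9% of all 32851 windows. The CCAAT letters stood in 24 of the 30 against 37.4% of all windows. The E2F letters stood in 11 of the 30, and in 6 of the 9 windows of replication genes, against 9.57%. The AHR core, a match of only 5 letters, stood in 19 of the 30 against 32.4%. In E2f8 the E2F match lies 111 bases before the start and overlaps the CCAAT match, the AHR core lies 79 bases before it and the homology region 20 bases before it. Of the other printed stretches, that of Mcm6 also holds an AHR core, left in small letters, 95 bases before its start. These are letter matches and show no binding.

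With TCDD, WT livers had less counted E2f8 RNA and somewhat higher values for most other members. E2f8 fell and was the 1 member called, so 1 of 38 members passed the test (2.63%) against 5.38% of all genes. The other 37 had a median log2 change of 1.13, with 33 of them above 0, and none was called. Over all genes tested the median was -0.02, and 48.8% lay above 0. DESeq2 called 3 members, adding Mcm3 (adjusted p = 0.0147) and Mcm6 (adjusted p = 0.0211) as higher. At an unadjusted p under 0.05 edgeR gave 8 members, against 16.7% of all genes. Without the 5 libraries that stand apart, 4 members were called: E2f8, Mcm2 (adjusted p = 0.0427), Mcm3 (0.0323) and Mcm6 (0.0491).

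E2f8 (ENSMUSG00000046179, chromosome 7, 48866429 to 48881596, minus strand) was at 2.58, 6.05 and 11.3 CPM in WT vehicle mice 1, 7 and 13. It was at 1.05, 0.740 and 1.65 CPM in WT TCDD mice 2, 8 and 14. All 3 TCDD livers lay below all 3 vehicle livers, and the vehicle livers were themselves spread widely. The log2 change was -2.51 ± 0.54 (SE, n = 3 against 3; edgeR adjusted p = 0.0115). The call was lost in a fit of only these 2 groups (adjusted p = 0.0534). It was also lost without WT TCDD mouse 2 (0.0604), WT TCDD mouse 8 (0.0561) or WT vehicle mouse 13 (0.0690).

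E2f8 also fell with TCDD in dHSC livers. E2f8 was at 4.57, 6.56 and 13.2 CPM in dHSC vehicle mice 5, 11 and 17, and at 0.516, 0.445 and 0.358 CPM in dHSC TCDD mice 6, 12 and 18. The 3 TCDD values rest on only 7, 9 and 5 counts and lie below every other library of the series. The log2 change was -4.18 ± 0.61 (SE, n = 3 against 3; edgeR adjusted p = 0.00132), and the call was kept when each of the 6 libraries was left out (highest adjusted p = 0.0101). Without mice 17 and 18 and the 3 dHep libraries that stand apart it was -3.52 (adjusted p = 0.0440).

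In dHep livers E2f8 had similar values with and without TCDD. It was at 6.55, 5.41 and 5.66 CPM in dHep vehicle mice 3, 9 and 15, and at 10.3, 4.39 and 4.76 CPM in dHep TCDD mice 4, 10 and 16. The groups overlapped, and the log2 change was 0.15 ± 0.51 (SE, edgeR adjusted p = 0.971). The difference of the response between dHep and WT was 2.66 ± 0.74 on the log2 scale and was not called by edgeR (adjusted p = 0.149), while DESeq2 called it (adjusted p = 0.0379). Between dHSC and WT the difference was -1.67 ± 0.77 and was not called by edgeR or DESeq2. Among TCDD livers E2f8 was higher in dHep than in WT by 2.49 ± 0.54 (edgeR adjusted p = 0.0229), a call lost without WT TCDD mouse 2, 8 or 14 or dHep TCDD mouse 4 (adjusted p up to 0.138).

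**Figure D1:**
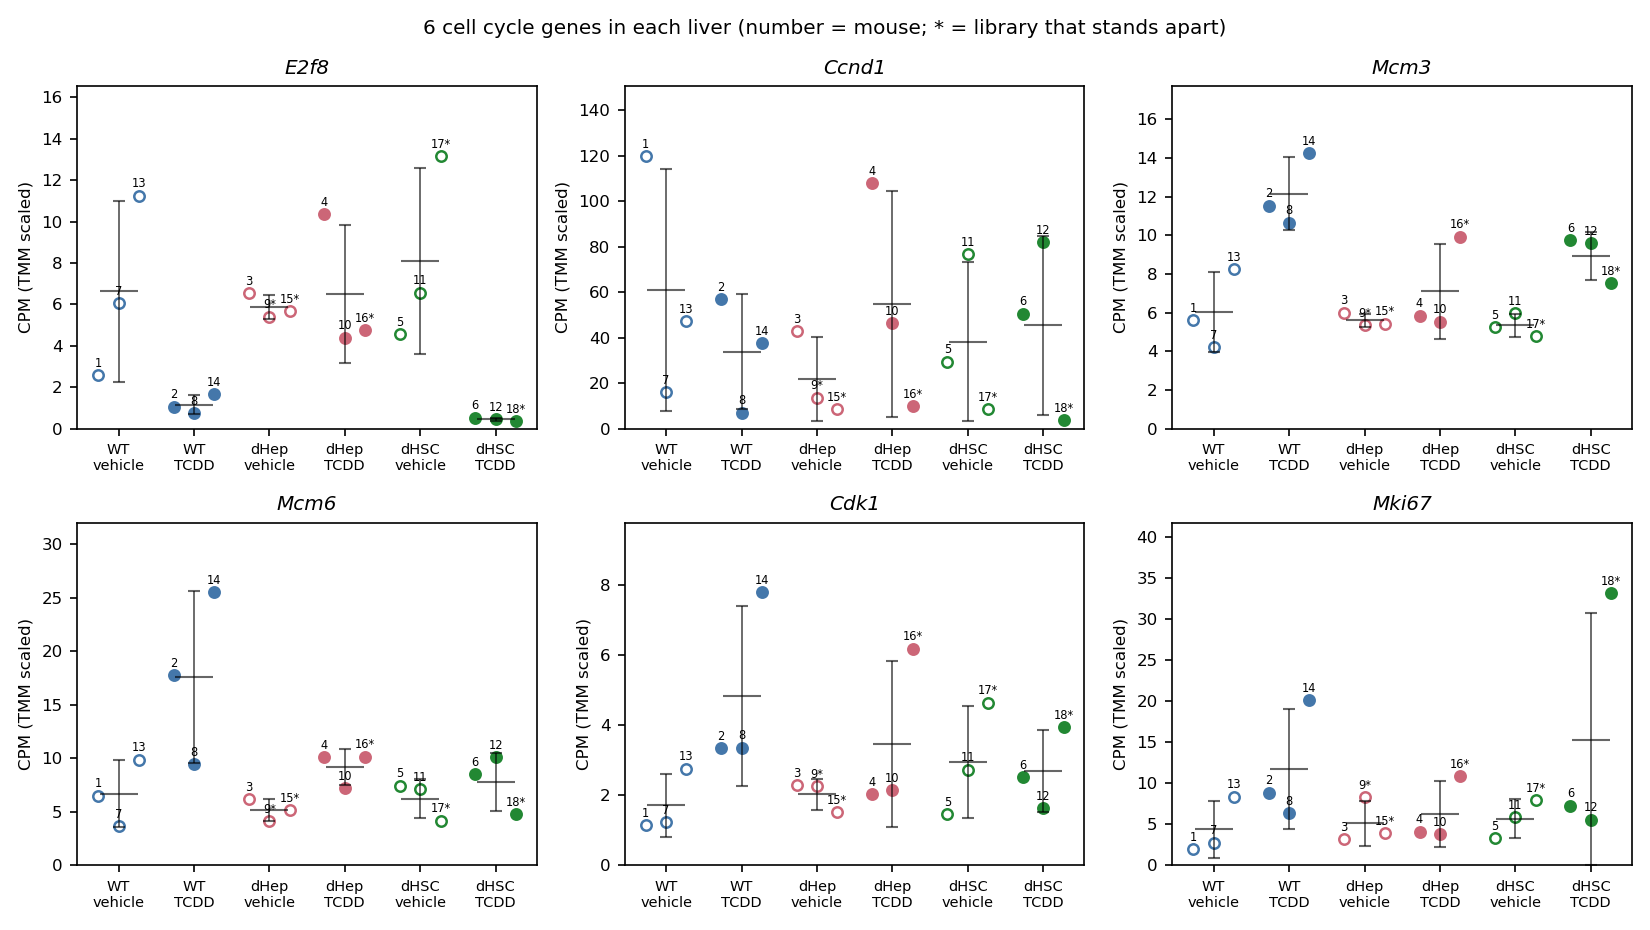
CPM of 6 cell cycle genes (linear axis) in each of the 18 livers, by group, with the group mean and 1 SD (n = 3; the lower bar is drawn no further than 0). E2f8 lies at 0.358 to 0.516 CPM in the 3 dHSC TCDD livers and at 0.740 to 1.65 in the 3 WT TCDD livers, below the vehicle livers of each genotype, and Mcm3 lies above the WT vehicle livers in all 3 WT TCDD livers.

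The E2f8 counts cannot be read apart from those of Gm2788, a processed transcript of unknown role on the opposite strand (ENSMUSG00000085995, chromosome 7, 48877958 to 48913040, plus strand). The genes share bases 48877958 to 48881596, which hold 47.0% of the exon bases of E2f8 and its start site. Of those, 610 bases also lie in Gm2788 exons, and the whole promoter stretch printed above lies inside Gm2788. The labels name a NEBNext Ultra RNA kit, not its directional version, and counting settings were not given in the sources used here. Without strand, reads from the shared bases cannot be told apart.

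Gm2788 was the more abundant of the pair and fell in the same genotypes. It was at 11.5, 50.4 and 64.0 CPM in WT vehicle mice 1, 7 and 13, and at 0.366, 0.399 and 0.413 CPM in WT TCDD mice 2, 8 and 14, on 7 to 10 counts each. In dHSC it was at 35.0, 29.8 and 103 CPM in vehicle mice 5, 11 and 17, and at 1.70, 2.22 and 2.44 CPM in TCDD mice 6, 12 and 18. In dHep it was at 25.6, 60.0 and 69.8 CPM in vehicle mice 3, 9 and 15, and at 44.2, 20.5 and 47.6 CPM in TCDD mice 4, 10 and 16. In WT and dHSC the groups lay far apart, and in dHep they overlapped.

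The log2 change of Gm2788 was -6.71 ± 0.75 in WT (SE; edgeR adjusted p = 8.09e-05), -4.72 ± 0.67 in dHSC (adjusted p = 0.00109) and -0.47 ± 0.56 in dHep (adjusted p = 0.915). The difference between dHep and WT was 6.25 ± 0.90 (adjusted p = 0.00323). These 3 calls were kept when each library was left out in turn (highest adjusted p = 0.0160), and with the 5 libraries that stand apart left out, the difference was 7.05 and missed the threshold (adjusted p = 0.0506). Without those 5 the dHep change was 0.34. E2f8 counts were 8.11% to 25.6% of Gm2788 counts in the 9 vehicle livers, 10.01% to 23.4% in the dHep TCDD livers and 14.7% to 30.4% in the dHSC TCDD livers. In the WT TCDD livers they were 186% to 400%, so there E2f8 counts exceeded those of Gm2788. The part of Gm2788 reads in the E2f8 values was not tested. Gm2788 was named after its values were seen.

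**Figure D2:**
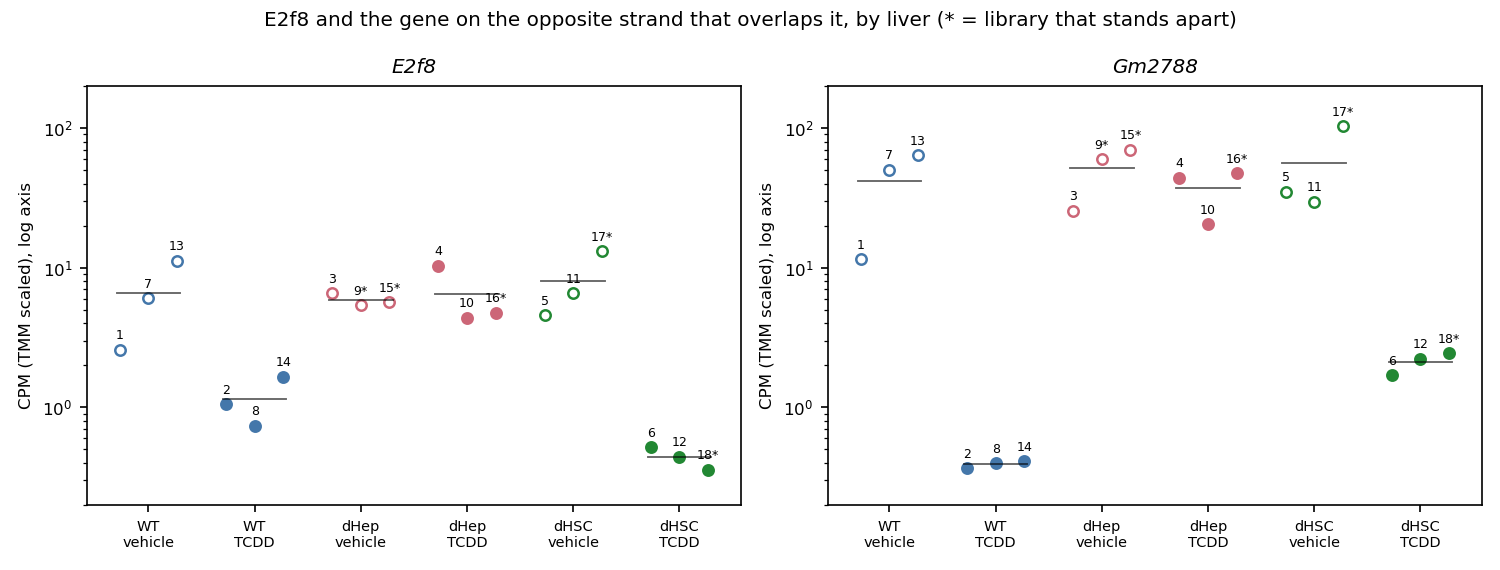
CPM of E2f8 and of Gm2788 (log axis, the same in both panels) in each of the 18 livers, with the group mean as a line. Both genes lie lower with TCDD in WT and dHSC livers and overlap between treatments in dHep livers, and the lowest group is dHSC TCDD for E2f8 and WT TCDD for Gm2788.

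The other G1 genes gave no call in any comparison. Ccnd1, the D cyclin that starts hepatocyte cell cycle entry, was at 120, 15.97 and 47.1 CPM in WT vehicle mice 1, 7 and 13 and at 56.9, 6.95 and 37.6 CPM in WT TCDD mice 2, 8 and 14. These groups overlapped, with a log2 change of -0.85 ± 1.09 (SE, edgeR adjusted p = 0.857). Ccnd1 was at 42.8, 13.6 and 8.45 CPM in dHep vehicle mice 3, 9 and 15 and at 108, 46.3 and 9.80 in dHep TCDD mice 4, 10 and 16. In dHSC it was at 29.4, 76.8 and 8.44 CPM in vehicle mice 5, 11 and 17 and at 50.5, 82.1 and 3.73 in TCDD mice 6, 12 and 18. The lowest library of each dHep and dHSC group was one of the 5 that stand apart, and the ranges of all 6 groups overlapped. Of the exon bases of Ccnd1, 37.6% lie inside the span of LTO1, introns included. Overlaps with other genes below are given the same way. Whether this overlap lowered the Ccnd1 counts was not tested.

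Cdkn1a, which encodes the CDK inhibitor p21, was at 3.15, 6.84 and 6.72 CPM in WT vehicle mice 1, 7 and 13, and at 7.60, 5.98 and 43.0 CPM in WT TCDD mice 2, 8 and 14. The log2 change of 1.76 ± 0.85 (SE, edgeR adjusted p = 0.312) rests on mouse 14, without which it was 0.28. A second high liver was dHep TCDD mouse 4, at 23.1 CPM. E2f1, an activating E2F, had log2 changes of 0.67 in WT, 0.51 in dHep and 0.08 in dHSC. The E cyclins Ccne1 and Ccne2, partners of CDK2 at the start of S phase, had WT changes of 0.59 and -0.21. Of the exon bases of Ccne2, 62.95% lie inside the span of Ints8, introns included, and whether this lowered its counts was not tested.

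The DNA replication genes had the lowest adjusted p-values among the members not called in WT. Of the 10 tested, 9 had a log2 change above 0 with TCDD in WT, with a median of 0.91. Mcm2 to Mcm7 encode the ring that is loaded at replication origins and then unwinds DNA. Their summed level was 34.9, 33.7 and 52.9 CPM in WT vehicle mice 1, 7 and 13, and 71.3, 54.9 and 98.4 CPM in WT TCDD mice 2, 8 and 14. All 3 TCDD sums lay above all 3 vehicle sums. In the other genotypes the sums overlapped between treatments: 32.8 to 42.5 CPM with vehicle and 31.7 to 47.4 with TCDD in dHep, and 28.9 to 42.8 with vehicle and 37.5 to 52.8 with TCDD in dHSC.

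Mcm3 was at 5.62, 4.20 and 8.27 CPM in WT vehicle mice 1, 7 and 13 and at 11.5, 10.6 and 14.3 CPM in WT TCDD mice 2, 8 and 14. The groups did not overlap, and the log2 change was 1.01 ± 0.30 (SE, edgeR adjusted p = 0.0618), which missed the threshold. In dHSC it was at 5.25, 5.97 and 4.78 CPM with vehicle and at 9.74, 9.59 and 7.52 CPM with TCDD, again without overlap, and the change was 0.75 ± 0.30 (adjusted p = 0.287). In dHep it was at 5.99, 5.35 and 5.43 CPM with vehicle and at 5.84, 5.52 and 9.93 with TCDD, with a change of 0.34. Mcm3 was called in WT without WT vehicle mouse 13 (adjusted p = 0.0436).

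Mcm6 was at 6.48, 3.64 and 9.87 CPM in WT vehicle mice 1, 7 and 13 and at 17.8, 9.45 and 25.5 CPM in WT TCDD mice 2, 8 and 14. TCDD mouse 8 lay just below vehicle mouse 13, so the groups overlapped. The log2 change of 1.40 ± 0.42 (SE, edgeR adjusted p = 0.0675) passed the threshold without mouse 8 (adjusted p = 0.0367). In dHep, Mcm6 was at 6.14, 4.10 and 5.13 CPM with vehicle and at 10.1, 7.22 and 10.1 CPM with TCDD, without overlap, and with a change of 0.83. In dHSC its change was 0.32, and the groups overlapped.

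Mcm2 was at 4.30, 5.49 and 8.09 CPM with vehicle and 10.8, 10.3 and 13.5 with TCDD in WT, without overlap (log2 change 0.95 ± 0.34, edgeR adjusted p = 0.125). Mcm4 was at 4.76, 5.10 and 6.89 CPM with vehicle and 10.1, 8.09 and 9.59 with TCDD, also without overlap (0.73 ± 0.40, adjusted p = 0.405). Mcm5 was at 2.41, 2.86 and 5.86 CPM with vehicle and 8.79, 5.41 and 13.3 with TCDD, where mouse 8 lay inside the vehicle range (1.30 ± 0.52, adjusted p = 0.182). Mcm7 had a change of 0.27, with 14.8% of its exon bases inside other genes. Mcm2 to Mcm5 and Mcm7, like Cdc45, Cdk1 and Cdkn1a, were described after their values were seen.

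Cdc45, which joins the MCM ring to form the active helicase, was at 1.32, 1.23 and 1.84 CPM with vehicle and at 2.66, 2.22 and 3.14 CPM with TCDD in WT (log2 change 0.87 ± 0.37, edgeR adjusted p = 0.226). In dHep it was at 1.12, 1.01 and 0.679 CPM with vehicle and at 2.38, 1.44 and 2.31 with TCDD (1.11 ± 0.38, adjusted p = 0.537). The groups did not overlap in either genotype. Cdc6, which loads the ring at origins, had 196 counts over all libraries and, at a mean of 0.117 CPM per kb of exon, the lowest level per length of the replication genes tested. Its WT log2 change was 1.19 ± 0.71 (edgeR adjusted p = 0.469).

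Pcna and Rrm2, also replication genes, had WT changes near 0. Pcna, the sliding clamp of the DNA polymerases, was the most abundant member per length, at 15.8 CPM per kb of exon over all libraries, followed by Ccnd1 at 9.02. It was at 47.6, 42.4 and 48.4 CPM in WT vehicle mice 1, 7 and 13 and at 47.9, 41.7 and 53.1 CPM in WT TCDD mice 2, 8 and 14, with a log2 change of 0.04 ± 0.41 (SE, edgeR adjusted p = 0.987). An SE of this size does not show that Pcna was unchanged. In the 5 libraries that stand apart Pcna was at 17.2, 25.7, 25.3, 21.9 and 14.1 CPM, against 38.02 to 53.1 CPM in the other 13.

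Rrm2, the small subunit of ribonucleotide reductase that makes DNA precursors, was at 5.04, 4.48 and 6.54 CPM with vehicle and at 3.85, 1.71 and 8.85 CPM with TCDD in WT, with overlap. Its log2 change was -0.15 ± 0.49 (SE, edgeR adjusted p = 0.956). In dHSC it was at 3.58, 5.45 and 4.71 CPM with vehicle and at 1.99, 1.98 and 3.44 CPM with TCDD. There all TCDD livers lay below all vehicle livers, with a change of -0.89 that was not called.

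Among WT livers, 5 members lay higher in every TCDD library than in every vehicle library: Mcm2, Mcm3, Mcm4, Cdc45 and Cdk1. That is 13.2% of the 38, against 13.4% of all genes, so such a separation was no more common among the members. E2f8 was the 1 member lower in every TCDD library (2.63% against 11.4%). In dHep, Mcm6 and Cdc45 lay higher in every TCDD library (5.26% against 4.56%) and Mcm7 lower (2.63% against 5.03%). In dHSC, Mcm3 lay higher (2.63% against 9.61%), and E2f8, Rrm2 and Ect2 lay lower (7.89% against 7.70%).

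**Figure D3:**
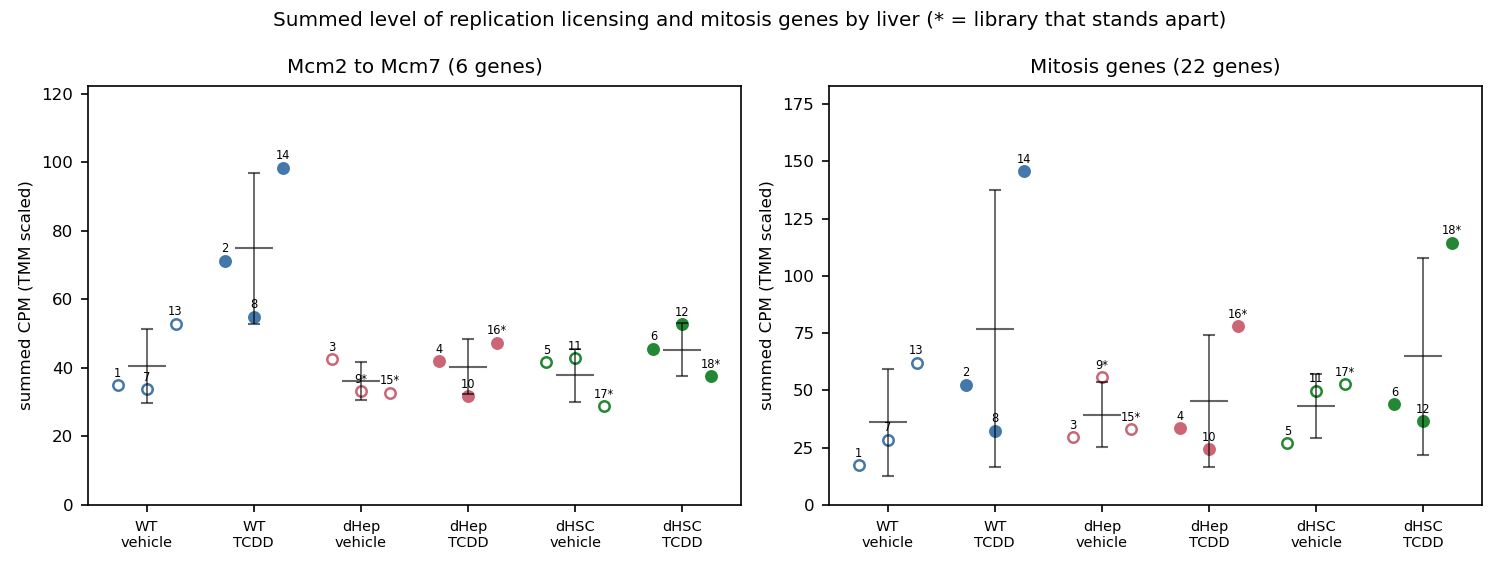
Summed CPM (linear axis) of Mcm2 to Mcm7 and of the 22 mitosis genes in each liver, with the group mean and 1 SD (n = 3). The MCM sums of the WT TCDD livers (54.9 to 98.4) lie above those of the WT vehicle livers (33.7 to 52.9), while the mitosis sums overlap between vehicle and TCDD in every genotype and are highest in TCDD mouse 14 of the WT, mouse 16 of the dHep and mouse 18 of the dHSC livers.

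In most groups the 22 mitosis genes were largely highest in the same liver. With TCDD in WT, 21 of the 22 had a log2 change above 0, with a median of 1.21, and none was called (lowest edgeR adjusted p = 0.169, for Cdk1; DESeq2 called none either). Their summed level was 17.4, 28.6 and 62.2 CPM in WT vehicle mice 1, 7 and 13, and 52.5, 32.4 and 146 CPM in WT TCDD mice 2, 8 and 14. The ranges overlapped, since 2 of the TCDD livers lay below vehicle mouse 13. All 22 genes were highest in mouse 14 among the WT TCDD livers, and 21 were highest in mouse 13 among the WT vehicle livers.

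In the other genotypes the TCDD groups also had 1 liver highest in nearly all of these genes, and the vehicle groups were more mixed. Of the 22 genes, 21 were highest in mouse 16 among the dHep TCDD livers, and 21 were highest in mouse 18 among the dHSC TCDD livers. Among vehicle livers 16 were highest in dHep mouse 9, while in dHSC 12 were highest in mouse 11 and 9 in mouse 17. The mitosis sums were 29.5, 55.7 and 33.2 CPM in dHep vehicle mice 3, 9 and 15 and 33.6, 24.3 and 78.0 CPM in dHep TCDD mice 4, 10 and 16. They were 27.1, 49.9 and 52.8 CPM in dHSC vehicle mice 5, 11 and 17 and 44.0, 36.6 and 114 CPM in dHSC TCDD mice 6, 12 and 18. Mice 16 and 18 are among the 5 libraries that stand apart. Mouse 18 also held 28.4% of its counts in mitochondrial genes, against 4.52% to 9.96% in the other 17 libraries. The part of either in their sums was not tested. The share of all genes that were highest in each of these libraries, WT ones included, was not measured.

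Without WT TCDD mouse 14 the median log2 change of the 38 members in WT went from 1.10 to 0.33, with 25 above 0. Without WT vehicle mouse 13 it was 1.62. Only the loss of mouse 14 moved the median by more than 1.5 times, and it stayed above 0 in all 6 fits that left out a WT library.

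Cdk1, the kinase that drives mitotic entry, was at 1.15, 1.23 and 2.76 CPM in WT vehicle mice 1, 7 and 13 and at 3.34, 3.36 and 7.81 CPM in WT TCDD mice 2, 8 and 14. It was the only mitosis gene without overlap between these groups, with a log2 change of 1.50 ± 0.58 (SE, edgeR adjusted p = 0.169). Ccnb1, its cyclin B partner, was at 0.172, 0.785 and 2.30 CPM with vehicle and at 1.97, 1.14 and 6.99 CPM with TCDD (1.63 ± 0.83, adjusted p = 0.359). In dHSC, Ccnb1 was at 0.498, 1.84 and 0.703 CPM with vehicle and at 2.21, 1.58 and 4.01 CPM with TCDD, with a change of 1.37. Ccna2 and Ccnb2, further cyclins of this stage, Plk1, a kinase of mitotic entry, and Foxm1, a transcription factor of mitosis genes, had WT changes of 1.13, 0.93, 1.46 and 1.16. Of the exon bases of Ccna2, 21.1% lie inside Exosc9.

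Aurka, a spindle kinase, had the highest CPM of the mitotic entry genes and differed from the rest. It was at 2.18, 6.22 and 5.11 CPM with vehicle and at 2.88, 3.64 and 5.58 CPM with TCDD in WT, and its log2 change of -0.16 ± 0.43 (SE, edgeR adjusted p = 0.949) was the only one of the 22 below 0. It was -0.27 in dHep and -0.19 in dHSC.

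Among the spindle checkpoint genes, Cdc20, the activator of the anaphase-promoting complex, was at 0.745, 1.68 and 3.79 CPM with vehicle and at 2.34, 0.740 and 10.9 CPM with TCDD in WT. Its log2 change of 1.17 ± 0.85 (SE, edgeR adjusted p = 0.602) became -0.42 without mouse 14. Bub1b, which encodes the checkpoint protein BUBR1, was at 0.917, 1.06 and 1.66 CPM with vehicle and at 2.84, 1.08 and 4.88 CPM with TCDD (1.27 ± 0.53, adjusted p = 0.221). Bub1, a checkpoint kinase, was at 0.229, 0.168 and 0.804 CPM with vehicle and at 0.504, 0.114 and 1.78 CPM with TCDD (1.004 ± 1.03, adjusted p = 0.783). In all 3 genes mouse 8 lay inside the vehicle range or below it. Ttk, a further checkpoint kinase, had a WT change of 1.26.

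Mki67, the gene of the Ki-67 proliferation antigen, was at 1.95, 2.75 and 8.32 CPM with vehicle and at 8.84, 6.32 and 20.1 CPM with TCDD in WT (log2 change 1.44 ± 0.74, SE, edgeR adjusted p = 0.362). In dHSC it was at 3.26, 5.82 and 7.95 CPM with vehicle and at 7.23, 5.54 and 33.2 CPM with TCDD, where mouse 18 was the highest liver of the series. In dHep it was at 3.15, 8.27 and 3.92 CPM with vehicle and at 4.07, 3.77 and 10.8 CPM with TCDD, and its change was 0.28. The groups overlapped in each genotype.

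Cenpf, a kinetochore protein gene, was at 0.172, 0.504 and 1.61 CPM with vehicle and at 1.42, 0.683 and 5.13 CPM with TCDD in WT, with a log2 change of 1.66 ± 0.96 (SE, edgeR adjusted p = 0.443). The remaining genes of this role had WT changes between 0.33 and 1.64. They are Top2a, which untangles DNA, Aurkb and Birc5 of the chromosomal passenger complex, the kinetochore motor Cenpe, the spindle genes Kif11, Tpx2 and Nusap1, and Kif20a and Ect2 of cytokinesis. Of the exon bases of Kif20a, 32.3% lie inside Cdc23. Ect2 had the largest drop of this role in dHSC, at -1.20, and was not called.

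**Figure D4:**
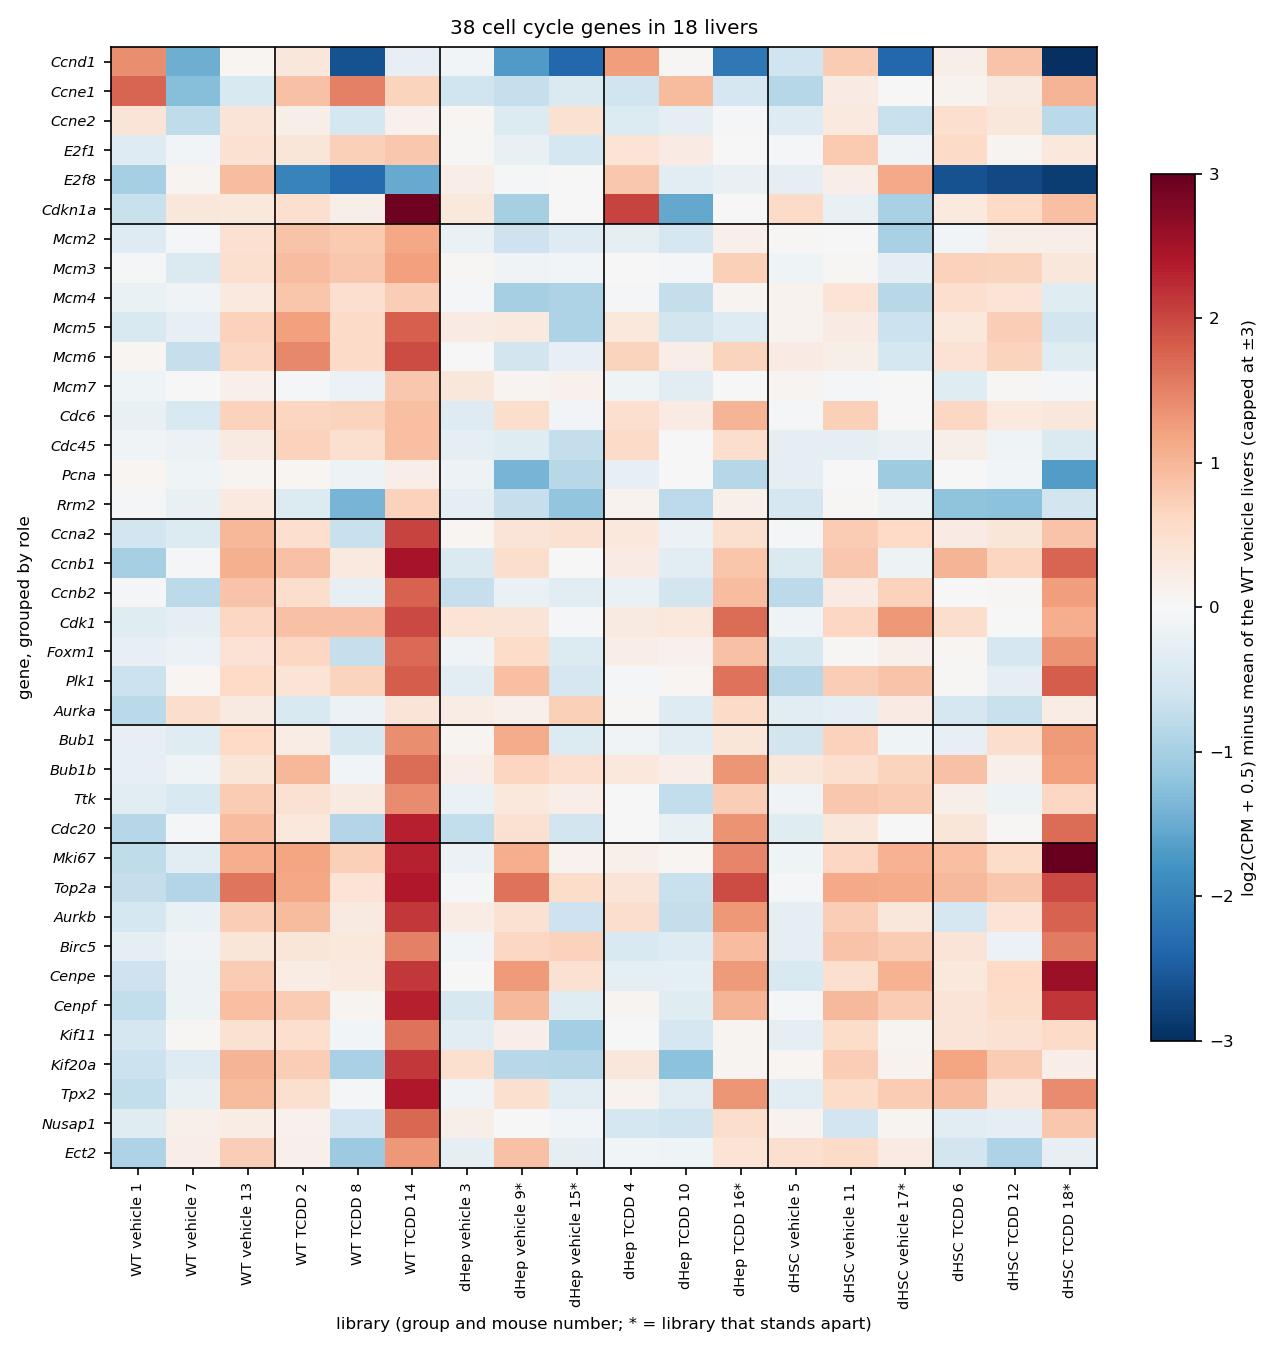
Level of the 38 members tested in each of the 18 livers, as log2(CPM + 0.5) minus the mean of the 3 WT vehicle livers, with the colour scale capped at 3 in either direction. The E2f8 row is the 1 row low in every WT TCDD and dHSC TCDD liver, and the mitosis rows are high together in WT TCDD mouse 14 and, less evenly, in dHSC TCDD mouse 18.

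In dHep livers TCDD left no member called by edgeR, against 0.0674% of all genes (10 genes), and DESeq2 called none. Cdc45 was the 1 member with an unadjusted p under 0.05, against 6.7% of all genes. The median log2 change of the 38 was 0.33, with 28 above 0, against -0.01 and 49.4% over all genes. Without dHep TCDD mouse 16 the median was -0.0027, with 19 above 0, and without the 5 libraries that stand apart it was 0.05, with 23 above 0. It also moved by over 1.5 times without dHep vehicle mouse 9 (0.56) or dHep TCDD mouse 10 (0.55). The mitosis genes had a median of 0.23 and the replication genes one of 0.42. In dHSC livers E2f8 alone was called, 1 of 38 (2.63%) against 2.55% of all genes, and the other 37 had a median of 0.39 with 30 above 0, against 0.00 and 49.7% over all genes. The median of all 38, 0.38, was 0.13 without dHSC TCDD mouse 18, with 22 above 0, 0.59 without dHSC vehicle mouse 11 and 0.19 without the 5 libraries that stand apart. There 2 members, E2f8 and Mcm3, had an unadjusted p under 0.05, against 12.2% of all genes.

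The test of the difference between the responses called no member. For dHep against WT the members' median was -0.68, with 6 of 38 above 0, against -0.02 and 49.1% over all genes, and 0.856% of all genes were called. All 22 mitosis genes and 7 of the 10 replication genes tested had a negative difference. For dHSC against WT the median was -0.60, with 4 of 38 above 0, against 0.03 and 53.2% over all genes, and 0% of all genes were called. edgeR gave 1 member an unadjusted p under 0.05 in each, E2f8, against 8.43% of all genes for dHep and 1.57% for dHSC, and DESeq2 called E2f8 for dHep and none for dHSC. Both differences use the same WT mice as the WT comparison, and with single libraries left out the medians ran from -1.05 to -0.02 for dHep and from -1.03 to 0.10 for dHSC. The values nearest to or above 0 are those without WT TCDD mouse 14, with 19 and 21 of 38 above 0.

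**Figure D5:**
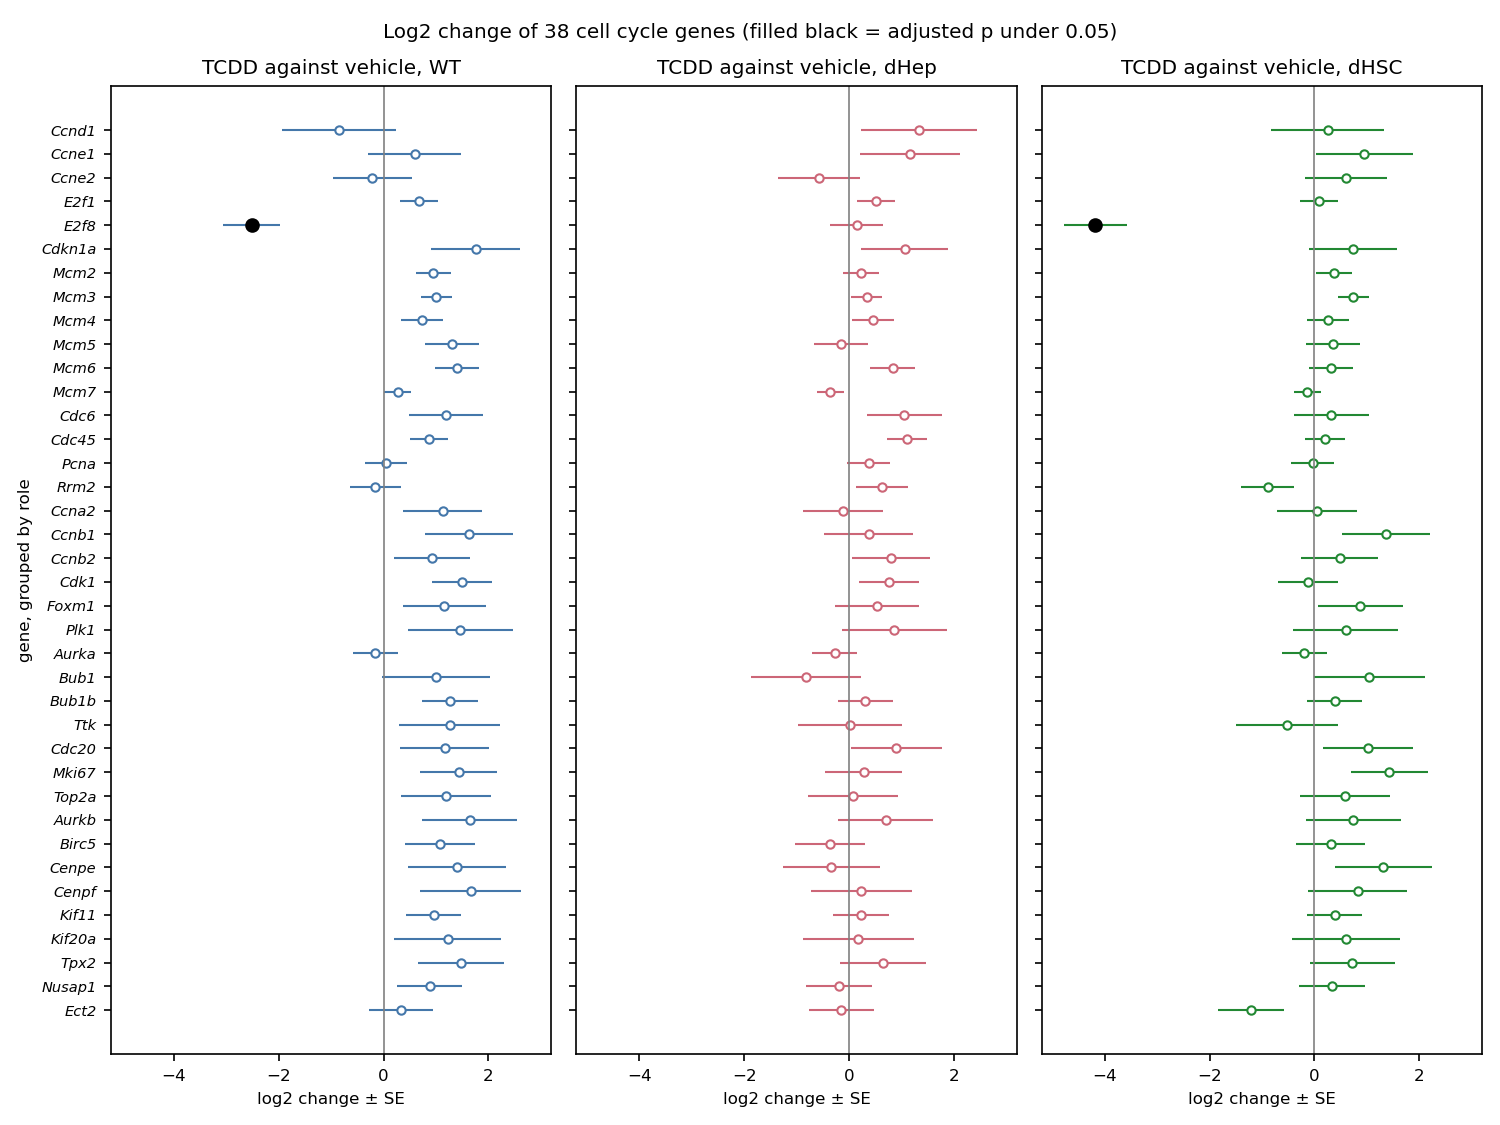
Log2 change with TCDD of the 38 members tested, with its SE, in WT, dHep and dHSC livers, with the genes ordered by role. E2f8, at -2.51 in WT and -4.18 in dHSC, is the only filled point, and most other points of the WT panel lie to the right of 0 with SEs of 0.26 to 1.09.

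In vehicle livers, the genotypes showed no called member. For dHep against WT in vehicle the median log2 difference was -0.09, with 16 of 38 members above 0 against 48.7% of all genes. For dHSC it was 0.01, with 21 of 38 above 0 against 47.6%. Both directions turned on single livers. With 1 library left out the dHep median ran from -0.37, without WT vehicle mouse 1, to 0.41, without WT vehicle mouse 13, with 9 to 28 above 0. The dHSC median ran from -0.14, without dHSC vehicle mouse 11, to 0.65, without WT vehicle mouse 13, with 13 to 29 above 0. edgeR called 0% of all genes in either, and DESeq2 called no member. No member had an unadjusted p under 0.05, against 6.91% of all genes for dHep and 1.48% for dHSC. Cdc45, Pcna and Rrm2 lay lower in every dHep than in every WT vehicle liver (7.89% of members against 3.26% of genes), and Cdc45 lay lower in dHSC (2.63% against 2.16%). No member lay higher in every dHep or every dHSC vehicle liver, against 4.58% and 2.24% of genes. Mice 9 and 15, which stand apart, are among the 3 dHep vehicle livers.

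Among TCDD livers, E2f8 was the 1 member called between dHep and WT (2.63%), higher in dHep, against 1.94% of all genes. DESeq2 also called Mcm2 (adjusted p = 0.0188), lower in dHep. The members' median was -0.88, with 4 of 38 above 0 against 47.2% of all genes, and 7 had an unadjusted p under 0.05, against 9.83%. Mcm2 was at 4.72, 3.89 and 6.46 CPM in dHep TCDD mice 4, 10 and 16, against 10.8, 10.3 and 13.5 in the WT TCDD mice, a log2 difference of -1.20 ± 0.34 (SE, edgeR adjusted p = 0.0971). Mcm2 to Mcm5 lay lower in every dHep TCDD liver, 10.5% of members against 9.68% of all genes, and E2f8 lay higher (2.63% against 6.58%). Without the 5 libraries that stand apart Mcm2 was called (-1.42, adjusted p = 0.0373). Without WT TCDD mouse 14 the median was -0.06.

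For dHSC against WT with TCDD the median was -0.46, with 5 of 38 above 0 against 50.7% of all genes. Without WT TCDD mouse 14 it was 0.29, with 22 above 0, and without any other library of these groups it ran from -0.89, without dHSC TCDD mouse 18, to -0.43. edgeR called 0% of all genes and no member, with 5 members at an unadjusted p under 0.05 (3.63% of all genes), and DESeq2 called no member. None lay higher in every dHSC liver, against 3.78% of genes. E2f8, Mcm2, Mcm3, Mcm4, Cdc6 and Cdc45 lay lower in every dHSC TCDD than in every WT TCDD liver (15.8% of members against 4.38% of all genes). Mcm3 was at 9.74, 9.59 and 7.52 CPM in dHSC against 11.5, 10.6 and 14.3 CPM in WT.

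Other genes of the same pathways, from lists of further members, gave few calls. In WT, 43 of 45 tested further mitosis genes had a log2 change above 0, with a median of 1.13, and 1 was called, against 48.8% of all genes above 0 and 5.38% called. That was Nek2, a centrosome kinase, at 0.860, 0.785 and 1.78 CPM with vehicle and 4.95, 3.53 and 11.5 CPM with TCDD, a change of 2.54 ± 0.55 (SE, edgeR adjusted p = 0.0114). It did not overlap between the groups. The median of the further mitosis genes rests on the same WT mice as that of the members, and the part of mouse 14 in it was not tested. Against the same shares, 19 of 26 further replication genes tested lay above 0, with a median of 0.33, and Tipin, a replication fork protein gene, rose by 1.03 (adjusted p = 0.0374), the 1 call among them. Gmnn, which encodes the replication licensing inhibitor geminin, rose by 1.87 in dHSC (edgeR adjusted p = 0.0256), where 2.55% of all genes were called. In WT, Gmnn was not called but also did not overlap, at 18.2, 16.6 and 10.2 CPM with vehicle and 40.6, 49.6 and 32.1 with TCDD. In dHep it was at 12.7, 11.1 and 10.9 CPM with vehicle and 6.36, 22.7 and 15.6 with TCDD, with overlap. None of 24 further cyclin, CDK and E2F-pocket genes (median 0.13 in WT, 16 above 0) and none of 21 CDK inhibitor and p53 target genes (median -0.06, 10 above 0) was called in WT.

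Of 17 liver mitogen, receptor and immediate early genes tested, 3 rose and 2 fell with TCDD in WT, where 5.38% of all genes were called in either direction. Egfr, the receptor of EGF-family growth factors, was at 211, 282 and 350 CPM with vehicle and at 63.7, 100.6 and 110.5 CPM with TCDD, a log2 change of -1.62 ± 0.35 (SE, edgeR adjusted p = 0.0125). In dHSC it was at 334, 248 and 181 CPM with vehicle and at 40.7, 48.9 and 40.6 CPM with TCDD, a change of -2.55 ± 0.37 (adjusted p = 0.00126). In dHep it was at 338, 149 and 280 CPM with vehicle and at 353, 251 and 185 CPM with TCDD, with overlap. Egfr thus lay lower in every TCDD liver of WT and dHSC, and it was higher in dHep than in WT with TCDD by 1.52 (adjusted p = 0.0342).

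Also in WT, Met, the hepatocyte growth factor receptor gene, fell by 0.91 on the log2 scale (edgeR adjusted p = 0.0459). Myc, a growth-promoting transcription factor gene, rose by 1.56 (0.0344), Ier3, an immediate early gene, by 2.83 (0.0255), and Ereg, the EGF-family ligand epiregulin, by 3.08 (0.0265). Of the calls named among these further pathway genes, that of Egfr in dHSC was the only one kept when each library was left out in turn.

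Markers of other cells moved with TCDD in WT beside these genes. The counts of markers called there stand against 5.38% of all genes called in either direction. Summed neutrophil markers went from 2.80 to 6.83 CPM in vehicle livers to 89.1 to 102 CPM in TCDD livers, with 8 of 8 tested markers called higher. Granulocyte precursor markers went from 0.517 to 0.917 CPM to 4.16 to 19.9 CPM (1 of 4 tested called), B and plasma cell markers from 11.7 to 33.7 CPM to 56.4 to 117 CPM (3 of 5 called; Ms4a1, Mzb1 and Igkc were at 0 in every library), and cholangiocyte markers from 76.3 to 94.1 CPM to 244 to 308 CPM (3 of 8 called). Scar macrophage and monocyte markers went from 71.6 to 84.7 CPM to 393 to 498 CPM (5 of 9 called). Spp1 is in both this list and the cholangiocyte list, so their sums share a gene and are not separate. Stellate cell and myofibroblast markers went from 110 to 430 CPM to 298 to 491 CPM, with overlap (3 of 9 called higher). Lrat and Timp1 were at 0 in every library. The overlap rests on vehicle mouse 1, at 430 CPM, the library high in skeletal muscle markers. Vehicle mice 7 and 13 were at 110 and 129 CPM, and the part of muscle in this sum was not tested. Kupffer and macrophage markers went from 185 to 560 CPM to 440 to 668 CPM, also with overlap (2 of 8 called higher). Of 7 endothelial markers 1 was called higher and 1 lower, and none of 9 T and NK cell markers or of 8 erythroid markers was called. The highest granulocyte precursor sum among WT TCDD livers was in mouse 14, at 19.9 CPM, the liver highest in all 22 mitosis genes. Mouse 14 also had the highest Kupffer and neutrophil sums of these livers, at 668 and 102 CPM. Its B and plasma cell sum was 68.8 CPM, against 117 in mouse 2, and its cholangiocyte sum was the lowest of these livers, at 244 CPM. Hepatocyte markers summed to 93242 to 168002 CPM with vehicle and 52005 to 94079 CPM with TCDD, with overlap, and none of 9 tested was called. Some of these sums also lay apart in the other genotypes. Scar macrophage and monocyte markers went from 96.1 to 152 CPM to 206 to 360 CPM in dHep. In dHSC they went from 59.2 to 119 CPM to 227 to 318 CPM. The neutrophil, B and plasma cell, cholangiocyte and stellate cell sums also lay higher in every TCDD liver of dHSC. In dHep those sums overlapped between treatments. In dHSC TCDD mouse 18, neutrophil markers reached 159 CPM and B and plasma cell markers 239 CPM. The part of these cells in the cell cycle values was not tested.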

How the data were processed

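The deposited files hold raw counts per gene, 1 file per liver, as whole numbers. Per the submitters' processing notes, the authors' tools were HISAT2 2.1.0, HTSeq 0.11.3, FastQC 0.11.9 and also DESeq2 1.22.2, on GRCm38; counting settings are not given in the sources used here. Identifiers were named from GENCODE M21 (55450 of 55536 have a symbol; 1 hepatocyte marker, Tf, was not matched).

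The counts were fitted with edgeR 4.0.16 in R 4.3.3: filterByExpr, TMM scaling, 1 model of all 18 libraries with a mean per group, the quasi-likelihood test and Benjamini-Hochberg adjustment over 14835 genes. The standard error is the log2 change over the root of F. The scripts were tested on simulated data. The mice are separate animals per the labels. The alternatives were RLE scaling, no filter, at least 1 CPM in 3 libraries, DESeq2 1.42.0, only the groups compared, sets of 6 mouse numbers as a block, leaving out each library and, chosen after seeing the data, leaving out the 5 libraries that stand apart and a covariate, the log2 share of counts from genes that are not protein-coding.

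The members, the further lists and the markers were chosen with earlier results of these data known. Values by library are given for members called in any comparison and, in each role, those with the highest mean CPM or the largest change of TCDD in WT or dHSC. Further pathway genes are named where called.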

Additional observations from a re-analysis of the deposited data

Results flagged for a closer look

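The response of Gm2788, the antisense neighbour of E2f8, differed between genotypes by the test of the difference itself: the log2 change with TCDD was 6.25 higher in dHep than in WT livers (SE 0.90, n = 3 in each of the 4 groups, edgeR adjusted p = 0.00323). No member of the cell cycle set passed that test.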

How the results depend on the processing

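The count of members called by edgeR with TCDD in WT (1) was 3 with DESeq2, 0 with only the groups compared, 4 without the 5 libraries that stand apart, 4 with the covariate and 0 to 1 with a library left out. For the difference between dHep and WT it went from 0 to 1 with DESeq2. For dHep against WT with TCDD (1) it was 2 with DESeq2, 2 without the 5 libraries, 2 with the covariate and 0 to 1 with a library left out. The other 70 alternative values did not move. They are counts of members called, equal or within 1.5 times, and the members' mean summed CPM by group with RLE scaling, within 1 SD. Of the values of single genes, other than by leaving out a library, 279 kept direction and side of the threshold. Another 12 passed it newly, 11 no longer passed it and 2 turned. Those are the dHep change of Gm2788 (-0.47), at 0.34 without the 5 libraries and 0.0097 with the covariate. Leaving out 1 library turned the direction of values that were not called: the WT log2 changes then ran from -1.45 to 0.10 for Ccnd1, -0.046 to 0.13 for Pcna, -0.95 to 0.25 for Rrm2, -0.49 to 0.15 for Aurka, -0.42 to 1.94 for Cdc20 and -0.34 to 1.99 for Bub1, and the dHep change from -0.36 to 0.37 for E2f8. The cause was not tested. No paired analysis was possible because the groups share no mouse number. With a replicate block of mouse numbers taken 6 at a time, which the labels do not give as a batch, the members called numbered 1 in WT, 0 in dHep and 1 in dHSC, as without the block, and 14 members in place of 8 had an unadjusted p under 0.05 in WT. Members with few counts, such as Bub1, Ttk and Cdc6, limit what these depths can show.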
